A study of Mus musculus with 20 samples.

Results

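Type 1 chains are glycans that end in galactose linked β1-3 to N-acetylglucosamine (Galβ1-3GlcNAc), and they are the precursor on which the Lewis a, Lewis b and type 1 ABH blood group determinants are built. Type 2 chains differ from them only in the linkage of the terminal galactose, which is β1-4 (N-acetyllactosamine, LacNAc). Natural antibodies are those found in serum without deliberate immunization, and many of them recognize carbohydrates. Printed glycan arrays measure such antibodies by exposing immobilized synthetic glycans to serum.

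The type 1 chains were chosen by structure alone, as the compounds numbered below 900 that start with Galβ1-3 linked to a β-linked GlcNAc and carry no fucose, mannose, sulfate or sialic acid. This gave 7 members among the 419 compounds printed. They are written here with their compound number and full structure, since the comparisons rest on single linkages. The first 2 are the Lewis c (Le C) disaccharide on different spacers and the other 5 are linear tetrasaccharides, none branched.
Compound 086: Galβ1-3GlcNAcβ-sp2.
Compound 208: Galβ1-3GlcNAcβ-sp4.
Compound 377: Galβ1-3GlcNAcβ1-3Galβ1-3GlcNAcβ-sp2.
Compound 401: Galβ1-3GlcNAcβ1-3Galβ1-3GlcNAcβ-sp3.
Compound 403: Galβ1-3GlcNAcβ1-3Galβ1-4GlcNAcβ-sp2.
Compound 379: Galβ1-3GlcNAcβ1-3Galβ1-4GlcNAcβ-sp3.
Compound 381: Galβ1-3GlcNAcβ1-6Galβ1-4GlcNAcβ-sp2.
The spacer is the short amine arm through which a glycan is bound to the glass: sp2 is aminoethyl, sp3 aminopropyl and sp4 glycyl. Compounds 377 and 401 are built of type 1 units only, 403 and 379 carry the type 1 unit at position 3 of the galactose of LacNAc, and 381 carries it at position 6 of that galactose.

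Sera came from female and male BALB/c mice, an inbred strain, aged 10 weeks, untreated and kept free of specific pathogens, and each serum was read on 1 array for IgG and IgM together, so that these classes cannot be told apart. Of the 20 deposited arrays, those of females 7 and 8 held the same intensity in 2664 of 2664 spots and were counted as 1, which left 12 females and 7 males. The signal of a compound in a mouse is the median of its 6 spots in relative fluorescence units (RFU), and 4000 RFU or more is called binding, the threshold that the methods use. On each array, spots printed with buffer alone gave the level without a glycan, and its median ran from 93.5 to 2044.5 RFU over the 19 arrays.

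The arrays fell into 2 sets, defined from the data by the ratio of 2 other compounds of the array, 902 over 900. It was 0.631 to 1.861 on 9 arrays (set A, 7 females and 2 males) and 0.011 to 0.056 on 10 arrays (set B, 5 females and 5 males). What separates the sets was not tested. Of the 7 members, 1 (compound 208) was higher on every array of set B than on every array of set A, against 20.0% of all compounds printed. The sets and the overall array level therefore enter every comparison between mice below, whereas comparisons between compounds were made within each mouse.

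Antibody signal on the type 1 chains was mostly low, and only 1 value, in 1 mouse, reached 8000 RFU. Binding was seen on 4 of 7 members in at least 1 mouse, against 54.9% of all compounds printed. Over all mouse and member combinations, 9 of 133 values reached 4000 RFU, and 50 of 133 were at or below the buffer level of their own array. These shares were 6.77% and 37.6% for the members, against 13.6% and 43.7% for all compounds printed. The 14 type 2 chains that meet the same rule with Galβ1-4 held 5 of 266 such values, and 200 of 266 lay at or below buffer. The 3 chains that end in Galβ1-3 on an α-linked GlcNAc held 20 of 57. No spot of a member was saturated.

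Neither form of the Le C disaccharide reached the threshold in any mouse. Compound 086 had a median of 641 RFU (median absolute deviation 356.5, n = 19), with a lowest value of 96.5 RFU in female 1 and a highest of 1308.5 RFU in male 2. Compound 208 had a median of 638.5 RFU (median absolute deviation 383, n = 19), between 80 RFU in female 7 and 1595 RFU in female 9. Both were at or below buffer in 6 mice, and neither exceeded 4 times the buffer level in any mouse. Single spots were less even than these medians: in female 7 the spots of compound 208 ran from 13 to 7719 RFU, with 5 of 6 flagged as not found by the scanner software, and in male 7 they ran from 19 to 4041 RFU, with 4 flagged.

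The tetrasaccharides made of type 1 units only were dim in most mice. Compound 377 had a median of 380 RFU (median absolute deviation 156.5, n = 19) and its lowest value was 47.5 RFU in female 7. It reached the threshold in 1 mouse, male 5, with 4305 RFU, followed by male 7 with 3879.5 RFU and male 4 with 2036 RFU. The other 16 mice stayed at or below 810.5 RFU. The 6 spots were all found in males 5 and 7, with ranges of 2514 to 5669 RFU and 3310 to 4335 RFU. The buffer level was 2044.5 RFU in male 5, the highest of the 19 arrays, and 644 RFU in male 7. Compound 377 was above 4 times buffer in 2 mice, with male 7 among them but not male 5.
In its sp3 form, compound 401, the same chain had a median of 376 RFU (median absolute deviation 220.5, n = 19), and its highest values were 3215.5 RFU in male 7, 2095 RFU in male 1 and 1797 RFU in male 4. None of these reached the threshold, and in 12 of 19 mice the compound was at or below buffer.

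Placing the type 1 unit at position 3 of LacNAc gave the brightest member by median. Compound 403 had a median of 1651 RFU (median absolute deviation 1204, n = 19) and ranked 89 of 419 compounds by that median. It was bound in 4 mice, all males, with 6220 RFU in male 1, 5787 RFU in male 2, 4338 RFU in male 6 and 4282.5 RFU in male 7. Its lowest value was 231.5 RFU in female 4. It was above buffer in 16 mice, and above 4 times buffer in 9.
On the sp3 spacer, compound 379 had a median of 1080.5 RFU (median absolute deviation 864, n = 19). It was bound in male 7 alone, with 4148.5 RFU, followed by 3480.5 RFU in male 4 and 3339.5 RFU in female 12. Its lowest value was 115 RFU in female 4, which was also the lowest mouse for compound 403. The spots of compound 379 were uneven in some sera, for example 11 to 4881 RFU in male 1, where the median was 2478.5 RFU.

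The chain with the type 1 unit at position 6 of LacNAc was bound by different mice. Compound 381 had a median of 772 RFU (median absolute deviation 607, n = 19) and the widest range of the members, between 75.5 RFU in female 2 and 24334 RFU in female 5. It was bound in 3 mice, female 5, female 12 with 5442 RFU and female 11 with 4527.5 RFU, all females. In female 5 all 6 spots were above the threshold, between 4718 and 37700 RFU, and in females 11 and 12 this held for 5 of 6 spots each. None of these 3 mice bound compound 403, which had 295.5 RFU in female 5, 2855 RFU in female 12 and 544 RFU in female 11. The position 6 chain without the terminal galactose (253) was also bound in female 5 (30294 RFU) and female 11 (4682 RFU). In female 12 it had 1056.5 RFU.

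**Figure D1:**
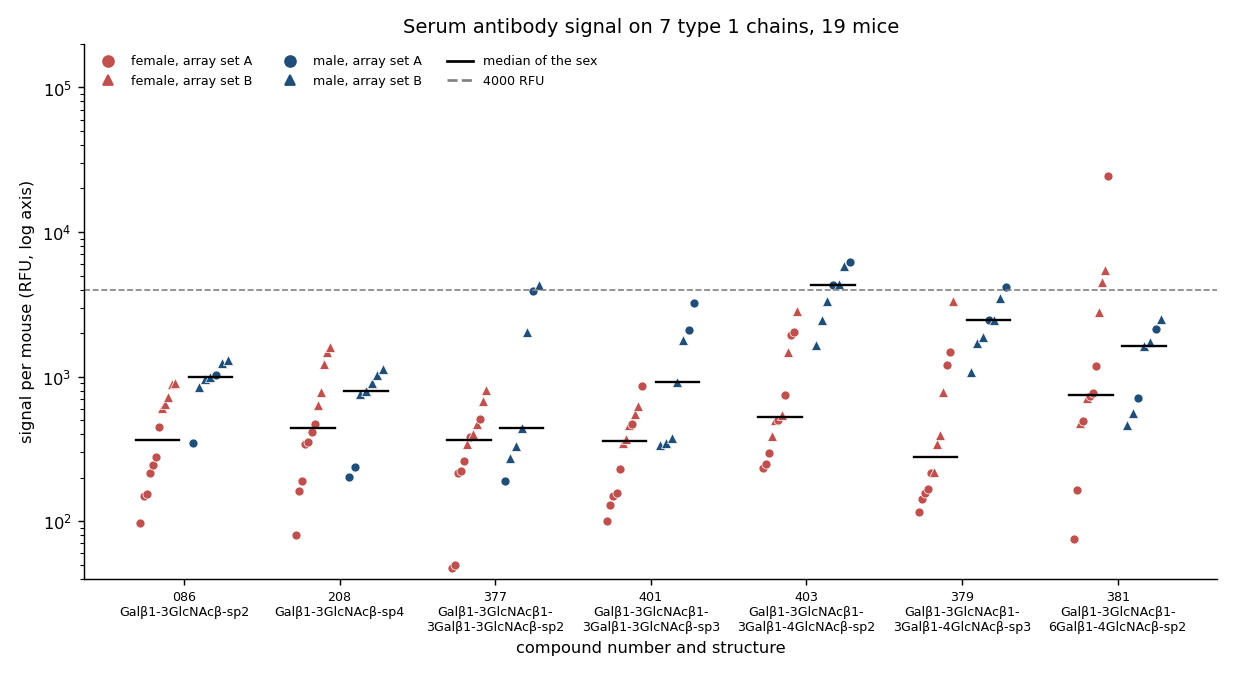
Signal of the 7 type 1 chains in each mouse, in RFU on a log axis, with females left of males for each compound, 1 point per mouse (circles, array set A, and triangles, set B) and a bar at the median of each sex. The disaccharides 086 and 208 stayed below 4000 RFU (dashed line), compound 403 crossed it in 4 males, and compound 381 crossed it in 3 females, reaching 24334 RFU in female 5.

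To ask which structural feature went with a difference in signal, the members were compared with each other and with related glycans of the array in 26 pairs. Each difference is the mean over 19 mice of log2 RFU of the first compound minus the second, with its 95% interval and a permutation test of 100000 sign flips (two-sided), adjusted over the 26 pairs by Benjamini-Hochberg. The adjusted p was under 0.05 in 12 pairs, with the first compound higher in 6 and lower in 6, and 14 pairs had an unadjusted p under 0.05.

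A change of spacer passed the test in 1 of 3 pairs. The position 3 chain was lower on sp3 than on sp2: compound 379 minus compound 403 was -0.77 (interval -1.05 to -0.49, adjusted p = 0.000433), with 379 lower in 17 of 19 mice. This is 0.586 times the signal on sp2, and it held in both sets of arrays (-0.96 in set A and -0.60 in set B). No difference was detectable between the spacers of the other glycans. For the all type 1 tetrasaccharide, compound 401 (sp3) minus compound 377 (sp2) was 0.02 (interval -0.56 to 0.64, adjusted p = 0.967). For the disaccharide, compound 208 (sp4) minus compound 086 (sp2) was 0.05 (interval -0.32 to 0.39, adjusted p = 0.897). With spots flagged as not found left out, this last difference was 0.60 and its adjusted p 0.0102.

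Across mice, the signals on compounds 379 and 403 followed each other closely. Over the 9 mice of set A, Pearson's r of log2 RFU was 0.95 (exact permutation p = 0.000441, adjusted p = 0.00353) and Spearman's rho 0.88 (exact permutation p = 0.00308, adjusted p = 0.0164). Over the 10 mice of set B, r was 0.94 (permutation p = 0.00023, adjusted p = 0.00353) and rho 0.87 (permutation p = 0.00227, adjusted p = 0.0164), all adjusted over the 16 relations computed. Without the 2 mice farthest from the median, r was 0.92 in set A and 0.86 in set B, and relative to the median of each array it was 0.92 in both sets. Compounds 401 and 377 followed each other in set B (r = 0.85, permutation p = 0.00661, adjusted p = 0.0353, rho = 0.87, permutation p = 0.00217, adjusted p = 0.0164), where r was 0.82 without the 2 farthest mice. In set A their r was 0.53 (exact permutation p = 0.134, adjusted p = 0.238) and rho 0.32 (exact permutation p = 0.4, adjusted p = 0.656). There, male 1 had 2095 RFU on 401 and 189.5 RFU on 377, and female 7 had 863.5 RFU on 401 and 47.5 RFU on 377. All 6 spots of 377 were flagged as not found in male 1, and 5 of 6 in female 7.
The forms of the disaccharide did not pass this test in either set. In set A r was 0.38 and rho 0.63 (exact permutation p = 0.32 and 0.076, adjusted p = 0.466 and 0.243), and in set B r was 0.16 and rho 0.1 (permutation p = 0.659 and 0.787, adjusted p = 0.805 and 0.926).
Nor did chains that share the spacer sp2 but differ in a linkage. For compounds 403 and 381, r was 0.03 and rho 0.1 in set A (exact permutation p = 0.936 and 0.81, adjusted p = 0.936 and 0.926) and r was -0.19 and rho -0.21 in set B (permutation p = 0.589 and 0.558, adjusted p = 0.785 and 0.811). For compounds 403 and 377, r was 0.55 and rho 0.41 in set A (exact permutation p = 0.107 and 0.273, adjusted p = 0.214 and 0.623) and r was 0.15 and rho -0.15 in set B (permutation p = 0.705 and 0.679, adjusted p = 0.805 and 0.905).

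**Figure D2:**
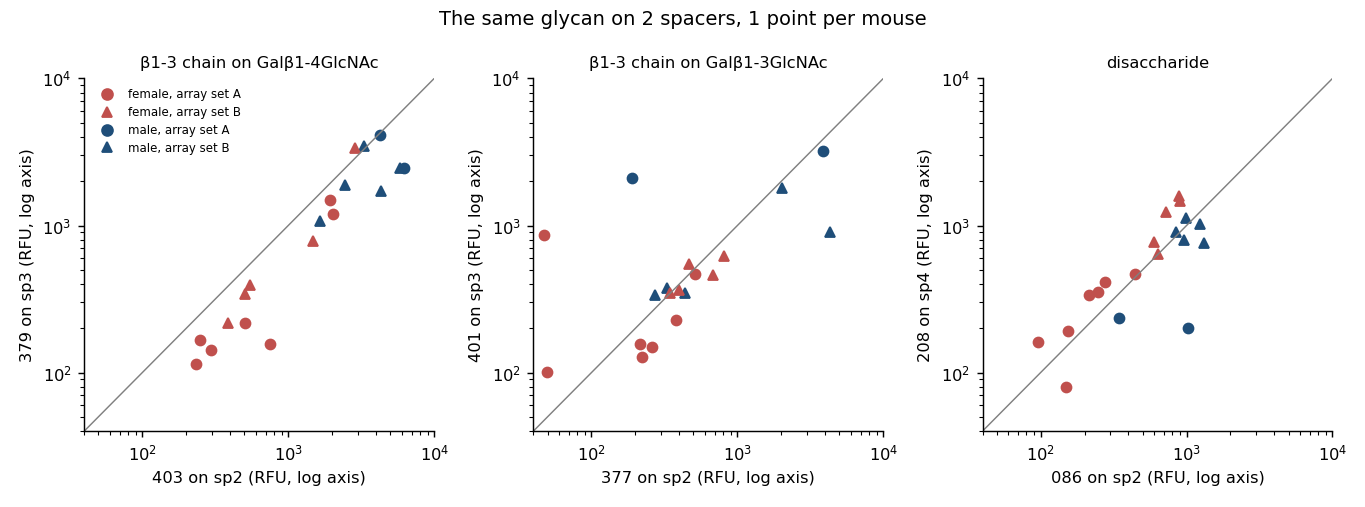
The same glycan on 2 spacers, with 1 point per mouse and both axes in RFU on a log scale, in females (red) and males (blue), for compounds 379 and 403 (left), 401 and 377 (middle) and 208 and 086 (right), and the line of equal signal in grey. Points for 379 and 403 lie along a line below equality. In the middle, male 1 stands apart at 2095 RFU on 401 and 189.5 RFU on 377, as does female 7 at 863.5 and 47.5 RFU.

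Of the 3 tetrasaccharides on sp2, the 2 with LacNAc as the inner unit were brighter than the disaccharide. Compound 403 exceeded the disaccharide 086 by 1.37 (interval 0.70 to 2.03, adjusted p = 0.00193), which is 2.58-fold, and was higher in 15 of 19 mice. Compound 381 exceeded it by 1.18 (interval 0.30 to 2.11, adjusted p = 0.0154), also in 15 of 19 mice, and by 0.84 (adjusted p = 0.0315) without female 5. The all type 1 chain 377 minus 086 was -0.15 (interval -0.69 to 0.40, adjusted p = 0.759).

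The linkage inside the chain was compared directly. With the inner galactose linked β1-3 (377) instead of β1-4 (403), the signal on sp2 was lower by a mean log2 difference of -1.51 (interval -2.31 to -0.72, adjusted p = 0.00193), in 17 of 19 mice, so that 377 gave 0.35 times the signal of 403. On sp3 the same change, 401 minus 379, gave -0.73 (interval -1.40 to -0.06), lower in 14 of 19 mice, with an unadjusted p = 0.0345 and an adjusted p = 0.064. Here 7 mice had both compounds at or below buffer. With 18 mice, the array of females 7 and 8 left out, it was -0.88 with an adjusted p of 0.0159.
No difference was detectable with the type 1 unit at position 6 instead of position 3 of the inner galactose: compound 381 minus 403 was -0.19, with a wide interval of -1.32 to 0.98 (adjusted p = 0.879).

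The terminal linkage that separates type 1 from type 2 chains went with a difference in 1 of 3 pairs. At position 3 of LacNAc, compound 403 exceeded its type 2 counterpart 384 (Galβ1-4GlcNAcβ1-3Galβ1-4GlcNAcβ-sp2) by 2.26 (interval 1.53 to 2.99, adjusted p = 0.000433) in 18 of 19 mice. Compound 403 was at or below buffer in 3 mice and bound in 4, whereas 384, with a median of 337.5 RFU, was at or below buffer in 17 and bound in none. With signals below buffer raised to the buffer level the difference was 1.61 (adjusted p = 0.00208). At position 6, compound 381 minus its type 2 counterpart 387 (Galβ1-4GlcNAcβ1-6Galβ1-4GlcNAcβ-sp2) was 0.19 (interval -0.55 to 0.94, adjusted p = 0.759). For the disaccharides, 086 minus LacNAc on sp2 (096) was -0.21 (interval -1.19 to 0.60, adjusted p = 0.897). Compound 096 had 39293.5 RFU in female 5, and without that mouse the difference was 0.23 (adjusted p = 0.468).

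Both chains at position 3 whose GlcNAc next to the terminal galactose is β-linked were lower than their α-linked forms, and no difference was detectable at position 6. The β-linked chain 377 was lower than its α-linked form 399 by a mean of -2.48 (interval -3.76 to -1.18, adjusted p = 0.00373), in 15 of 19 mice. Compound 379 was lower than its α-linked form 378 by a mean of -2.26 (interval -3.47 to -1.04, adjusted p = 0.00439), also in 15 of 19 mice. In male 6, compound 377 had 272.5 RFU, against 33386.5 RFU on 399, and compound 379 had 1712.5 RFU, against 48806 RFU on 378. The β-linked 377 and 379 were bound in 1 mouse each, and the α-linked 399 and 378 in 10 and 9 mice. At position 6, the β-linked 381 minus the α-linked 380 was 0.60 (interval -0.02 to 1.23, adjusted p = 0.0969).

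Removing the terminal galactose exposes GlcNAc. The disaccharide on sp2 was lower than GlcNAcβ-sp2 (compound 011), with a mean difference of -1.39 (interval -2.30 to -0.55, adjusted p = 0.0011), in 16 of 19 mice. Compound 011 had 52340.5 RFU in male 2 and 20820.5 RFU in female 5, and 2797.5 RFU or less in the other mice. Without female 5 the difference was -1.07 (adjusted p = 0.00221). On sp4, 208 minus GlcNAcβ-sp4 (022) was -0.24 (interval -0.51 to 0.04, adjusted p = 0.132).
For the tetrasaccharides, none of the 4 comparisons with the chain that lacks the galactose had an adjusted p under 0.05. The differences were 0.26 for 403 minus 249 (interval -0.39 to 0.92), -0.79 for 379 minus 250 (interval -1.46 to -0.11, unadjusted p = 0.0257, adjusted p = 0.0513), -0.03 for 401 minus 267 (interval -0.87 to 0.82) and 0.14 for 381 minus 253 (interval -0.67 to 0.93). With the mean of the 6 spots in place of their median, 379 minus 250 was -1.24 with an adjusted p of 0.00702.

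Substituted forms of the disaccharide were dimmer or brighter than the disaccharide itself, depending on the group they carried. The unsubstituted 086 exceeded the form with a sulfate at position 6 of the GlcNAc (compound 144) by 1.04 (interval 0.78 to 1.29, adjusted p = 0.000433), in 17 of 19 mice. Compound 144 was at or below buffer in 17 mice, and with signals below buffer raised to that level the difference was 0.30 (adjusted p = 0.00325). With the sulfate at position 6 of the galactose (compound 160) the unsubstituted form exceeded it by 0.76 (interval 0.31 to 1.19, adjusted p = 0.00645), in 17 of 19 mice. This difference was 0.15 (adjusted p = 0.387) once signals below buffer were raised to the buffer level, at or below which compound 160 lay in 15 mice.
With KDN, a sialic acid without an amino group, as the cap the difference had the opposite sign: 086 minus KDNα2-3Galβ1-3GlcNAcβ-sp2 (307) was -0.96 (interval -1.41 to -0.52, adjusted p = 0.00156), lower in 15 of 19 mice. Compound 307 was above buffer in all 19 mice and bound in 2.
For the position 3 chain, 403 minus its Fucα1-2 capped form 480, which carries the H type 1 determinant, was -0.94 (interval -2.01 to 0.13, adjusted p = 0.132). Compound 403 was bound in 4 mice and 480 in 8. In female 10, 403 had 501.5 RFU, against 18063 RFU on 480.
Replacing the N-acetyl group of the outer GlcNAc by N-formyl (compound 398) went with a lower signal, which 379 exceeded by 1.11 (interval 0.51 to 1.72, adjusted p = 0.00373), in 13 of 19 mice. Both compounds were at or below buffer in 8 mice. With signals below buffer raised to that level the difference was 0.83 (adjusted p = 0.0139). Compound 398 reached 3714 RFU in male 7 and 1473 RFU in male 4, which are the highest mice for 379 too, and 766 RFU or less elsewhere.

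**Figure D3:**
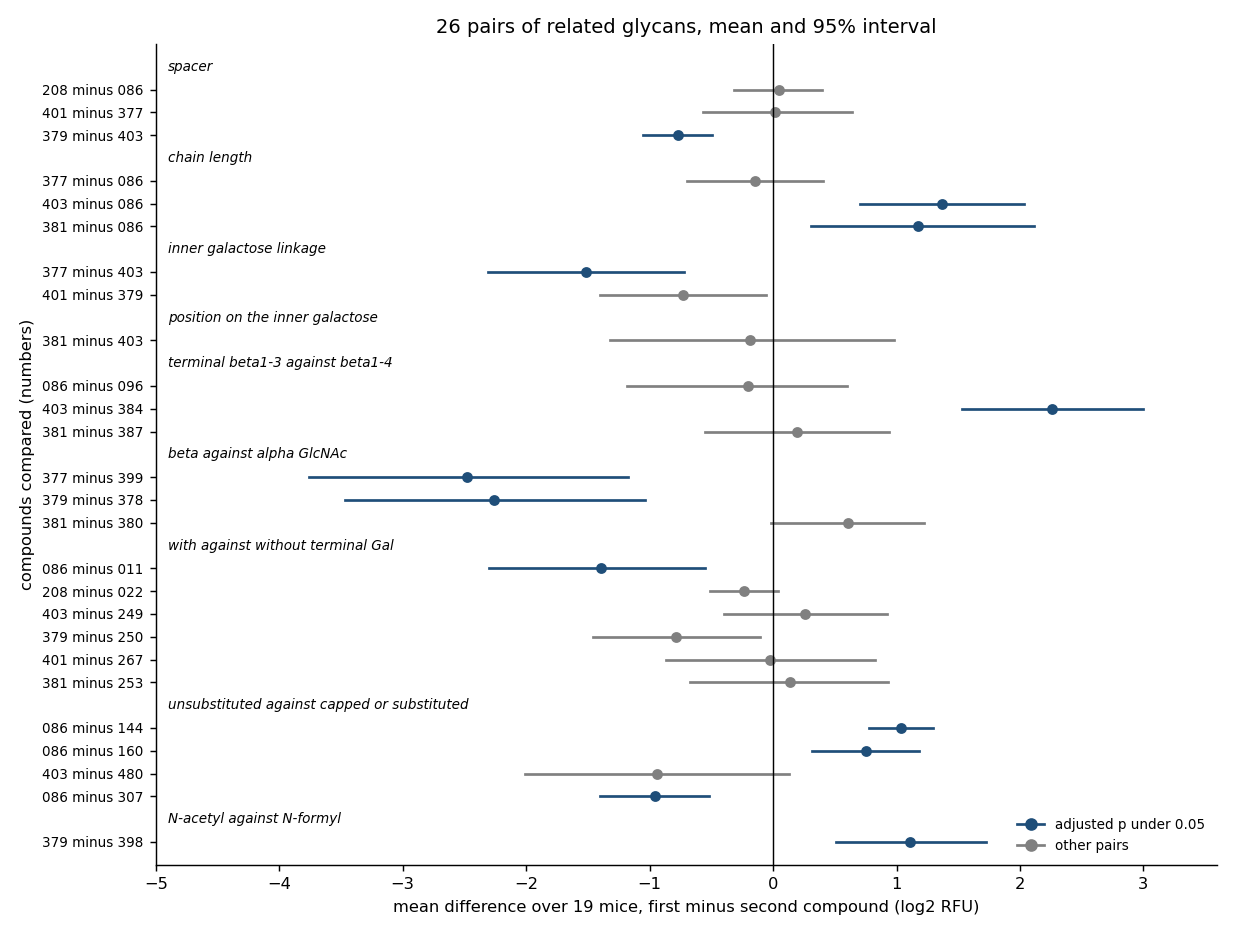
Mean difference in log2 RFU over 19 mice, first minus second compound, for 26 pairs grouped by the structural feature that differs, with the 95% interval as a line, in blue where the adjusted p was under 0.05 (12 pairs). Compound 403 exceeded its type 2 counterpart 384 by 2.26 (1.61 with signals below buffer raised to it), and the β-linked 377 and 379 were below their α-linked forms by means of -2.48 and -2.26.

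Several substituted type 1 disaccharides were printed on sp3, a spacer on which the unsubstituted disaccharide was not analysed here, so they are given beside it with no comparison. The unsubstituted disaccharide, on sp2 and sp4, had medians of 641 and 638.5 RFU and no mouse above the threshold. With sulfate at position 3 of the galactose (compound 154) the median was 29774 RFU, and all 19 mice bound it. Lewis a with a sulfate on its galactose (287) reached the threshold in 18 mice, with a median of 16321.5 RFU. The Fucα1-2 capped disaccharide (215) had a median of 1830 RFU, with 3 mice above the threshold, and Lewis a (233) had 206 RFU, with none. The forms with Neu5Ac (299) and Neu5Gc (331) at position 3 of the galactose had medians of 811 and 388 RFU and were bound in 6 and 5 mice. Forms with both sialic acid and sulfate (316, 333 and 335) were bound in 5, 5 and 6 mice. Compounds 316 and 335 are listed with the same structure and spacer, but their highest values were 6438 RFU in female 6 and 46218.5 RFU in male 5. No mouse bound the forms with sulfate at position 6 of the GlcNAc (145, median 348 RFU) or of the galactose (161, 548.5 RFU). The same held for 6-O-benzyl on the GlcNAc (129, 541 RFU) or on the galactose (130, 269.5 RFU), Lewis b (371, 300.5 RFU) and Lewis a capped with Neu5Ac (426, 210 RFU). With 6-O-benzyl on both sugars (131) the median was 1332.5 RFU, and 2 mice bound it.

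Female 5 was singled out after its values were seen. Its 24334 RFU on compound 381 stood beside 34333 RFU on the type 2 counterpart 387, 32345.5 RFU on the α-linked 380, 30294 RFU on 253, which lacks the terminal galactose, 39293.5 RFU on LacNAc (096) and 20820.5 RFU on GlcNAc (011). These are all on sp2, and all 6 were among the 24 brightest of the 419 compounds on that array. On the same spacer and the same array, 403 had 295.5 RFU, 086 had 153 RFU, 384 had 69 RFU and 377 had 49.5 RFU, and the buffer level was 112.5 RFU. On other spacers the same sugars ranked lower on that array, by different amounts. LacNAc ranked 7 on sp2 on that array, but 215, 385 and 418 on other spacers (097, 098 and 099). GlcNAc ranked 24 on sp2, and 52, 49, 112 and 213 on others (010, 013, 012 and 022). A LacNAc dimer that is not on sp2 (804) had 5685 RFU on that array and ranked 33. LacNAc with a sulfate at position 4 of the galactose, on sp3 (159), had 17784.5 RFU and ranked 27. The part played by the spacer was not tested.
Female 11 was also high on several of the sp2 compounds that were bright in female 5. It had 4527.5 RFU on 381, 5828 RFU on 387, 4682 RFU on 253, 3835 RFU on 096 and 2879 RFU on 380, against 1382.5 RFU on 011. Female 12 was different, with 5442 RFU on 381 but 2227.5 RFU on 387, 1056.5 RFU on 253, 952 RFU on 380 and 756 RFU on 096.
Across the mice of set A, compounds 381 and 387 had r = 0.66 and rho = -0.07 (exact permutation p = 0.0847 and 0.88, adjusted p = 0.194 and 0.939). With 253 the values were r = 0.82 and rho = 0.52 (exact permutation p = 0.0135 and 0.162, adjusted p = 0.0541 and 0.431), and with 380 they were r = 0.78 and rho = 0.32 (exact permutation p = 0.0424 and 0.41, adjusted p = 0.113 and 0.656). Without the 2 farthest mice r was -0.01, 0.17 and -0.03, so these relations rest on those mice. In set B, which lacks female 5, none of the 3 relations passed either: r was 0.48 with 387, -0.06 with 253 and 0.63 with 380 (permutation p = 0.153, 0.862 and 0.0359, adjusted p = 0.245, 0.92 and 0.113), and rho was 0.33, 0.02 and 0.67 (permutation p = 0.349, 0.974 and 0.0398, adjusted p = 0.656, 0.974 and 0.159).

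**Figure D4:**
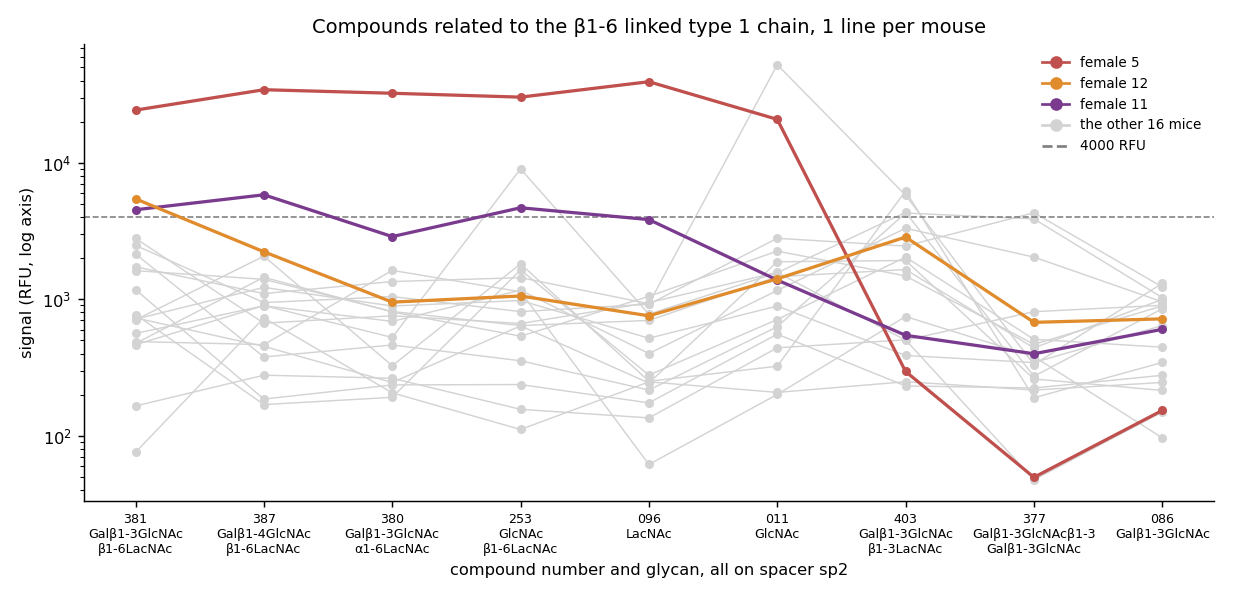
Signal in RFU on a log axis of 9 compounds on spacer sp2, with 1 line per mouse. Female 5 lies between 20820.5 and 39293.5 RFU on the 6 compounds at the left and at or below 295.5 RFU on 403, 377 and 086, while female 12 is above 4000 RFU (dashed line) on 381 only.

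The sexes were compared with limma across all 419 compounds, as log2 RFU of females minus males, with p-values adjusted over all of them. All 7 members had lower means in females, as had 385 of all 419 compounds. Compounds 403 and 379, 2 of 7, were lower in females, that is higher in males, with an adjusted p under 0.05. Over all compounds 1.43% were called higher in males and 0.239% higher in females. At an unadjusted p under 0.05, 5 of 7 members were higher in males, against 16.9% of all compounds. The median difference was -1.40 over the members and -0.76 over all compounds. After quantile normalization between arrays it was -0.57 over the members, 5 of 7 of them below 0, and 0.04 over all compounds, 193 of 419 of them below 0.

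Compound 403 had a lowest, median and highest value of 231.5, 524 and 2855 RFU in females, against 1651, 4282.5 and 6220 RFU in males. The ranges overlapped, with 9 of 12 females below the lowest male and 5 of 7 males above the highest female. The limma difference was -2.42 ± 0.62 (SE; adjusted p = 0.0464) and the exact permutation test (two-sided, 50388 assignments) gave p = 0.000496.
Compound 379 had 115, 279.25 and 3339.5 RFU in females, against 1080.5, 2478.5 and 4148.5 RFU in males, with 9 of 12 females below the lowest male. Its limma difference was -2.54 ± 0.66 (SE; adjusted p = 0.0464), and the exact permutation p was 0.00161.
The set of arrays moved with sex, since 7 of the 9 arrays of set A were from females. With the set as a term, the differences were -2.38 for 403 and -2.40 for 379, and the adjusted p was 0.0669 and 0.0876 (limma), while the exact permutation tests within sets (9072 assignments) gave p = 0.000441 and 0.000992. In set A alone the differences were -3.13 and -3.48, and in set B alone -1.91 and -1.72. Leaving out female 5 gave differences of -2.30 and -2.41, both with an adjusted p of 0.0775, and leaving out the array of females 7 and 8 gave -2.38 and -2.46, both with 0.0916. After quantile normalization between arrays they were -1.53 and -1.52, both with an adjusted p of 0.472.

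None of the other members passed the test by sex. Compound 401 differed by -1.58 ± 0.57 (SE; adjusted p = 0.178), compound 377 by -1.40 ± 0.64 (adjusted p = 0.276), and compound 086 by -1.36 ± 0.53 (adjusted p = 0.216, limma). Compound 208 differed by -0.38 ± 0.60 (adjusted p = 0.666, limma), and compound 381 by -0.07 ± 0.86 (adjusted p = 0.953, limma). The sign for 208 and 381 changed with the scaling: after quantile normalization they differed by 0.60 and 0.52 (adjusted p = 0.83 and 0.894, limma). On compound 381 the 3 bound mice were females, but the median female had 750.75 RFU and the median male 1619.5 RFU.

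Whether a structural difference itself varied with sex was tested for the same 26 pairs by exact permutation (50388 assignments), adjusted over the pairs. The adjusted p was under 0.05 in 1 pair, and 6 had an unadjusted p under 0.05. Compound 208 (sp4) minus 086 (sp2) averaged 0.41 in females and -0.57 in males, a difference of 0.98 (exact permutation p = 0.00113, adjusted p = 0.0294). The disaccharide was higher on sp4 in 10 of 12 females and in 2 of 7 males. Within the sets of arrays the difference was 1.24 (exact permutation p = 0.000661, adjusted p = 0.0172). Spots of compound 208 were not found in 22.8% of 114 cases, a share that ran from 7.0% (403) to 26.3% (377) over the members. On single arrays, 3.83% to 51.31% of all spots were not found. With such spots left out, 0 pairs passed and 4 had an unadjusted p under 0.05.
The excess of 403 over its type 2 counterpart 384 averaged 1.60 in females and 3.38 in males, a difference of -1.78 (exact permutation p = 0.00994, adjusted p = 0.129), and within the sets of arrays it was -2.23 (exact permutation p = 0.00143, adjusted p = 0.0186).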

How the data were processed

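The authors incubated each serum, diluted 1:15, on 1 slide, detected bound antibody with biotinylated anti-mouse IgG and IgM and Cy5-streptavidin, and scanned it. The deposited intensity of a spot is its mean pixel value, beside its local background and its percent of saturated pixels. The authors' table of the whole series lists structures and 1 intensity per compound, labelled as a median. For the 7 members it lay within 4.14% of the mean over 20 arrays, and that value was not used.
The RFU of a compound was the median intensity of 6 spots, with the background left in and no scaling between arrays, set to at least 100 RFU before log2. Pairs were tested by sign flips, with intervals holding the shifts that are not rejected, and sexes with limma 3.58.1 (R 4.3.3, trend) and exact permutation (Python 3.11.15, numpy 2.4.6, pandas 2.3.3). Correlations used exact permutation with 9 mice and 100000 permutations with 10. Mice are named by sex and a running number that pairs no animals, and female 7 stands for the identical arrays. Each mouse is 1 animal and 1 array, so the spread holds both. Every member is named, and values per mouse are given for those at 4000 RFU or more. Members, pairs and alternatives were chosen with earlier results of these data known. The limma fit, the sign flips and the exact test by sex were tested on simulated data, without the sets of arrays. The shifts simulated for limma were larger than the differences reported for the members. The correlations and the other steps were not tested in this way. Nothing in the files gives a named batch to enter as a block. Listed pairs with a compound that was not analysed here were left out.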

Additional observations from a re-analysis of the deposited data

Results flagged for a closer look

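Among males, compound 086 had 1 value far below the others on the log2 scale: male 1 had 344 RFU, and the other 6 males had 851 RFU or more. The gap to the next male took 0.68 of the range of the group. Male 1 is 1 of the 2 males on array set A, and the other, male 7, had 1028.5 RFU. Both ends of 7 groups of males were examined in this way, and chance alone marks about 1 in 20 groups.

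The difference between the disaccharide on sp4 (208) and on sp2 (086) was larger in females than in males by 0.98 on the log2 scale in the test of that difference. The 2 males of set A had 236 RFU (male 1) and 201 RFU (male 7) on compound 208, with 4 of 6 spots not found in each.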

How the results depend on the processing

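Of 260 alternative values of single pairs, 238 kept their direction and their side of the threshold, 1 lost the call (086 minus 160, raised to buffer), 7 gained one and 14 changed sign, none of these 14 with an adjusted p under 0.05. The count of 9 bound values became 24 at 2000 RFU, 1 at 8000 RFU and 5 after quantile normalization, and it was 4 in set A and 5 in set B. At 8000 RFU 1 member was bound. The 2 members called by sex (limma) became 0 after background subtraction, quantile normalization, raising to buffer, with the set as a term, without females 7 and 8, and without female 5, the last chosen after seeing the data, while 2 to 5 members had an unadjusted p under 0.05. No member was called higher in females under any of these settings, where 0 had an unadjusted p under 0.05 in that direction. The 1 pair that differed by sex became 3 after background subtraction, 2 with log2(RFU + 500), 2 within the sets, and 0 with spots not found left out, after quantile normalization and with all 20 arrays (unadjusted p under 0.05 in 4, 4 and 6 pairs by exact permutation).
The differences that changed sign were not called in either case. With the mean of the 6 spots, 401 minus 377 was -0.17 and the sex difference of 381 was 0.055. With background subtracted, 208 minus 086 was -0.002, 401 minus 377 was -0.014 and 381 by sex 0.003. With spots not found left out, 401 minus 377 was -0.30, 377 minus 086 was 0.014 and 208 minus 022 was 0.066. With log2(RFU + 500), 401 minus 377 was -0.005 and 381 by sex 0.17. Raised to buffer, 377 minus 086 was 0.14, 401 minus 267 was 0.14, 381 minus 253 was -0.079 and 381 by sex 0.079. With quantile normalization, 208 and 381 differed by sex by 0.60 and 0.52, and within the sets by 0.24 and 0.18, where 401 minus 267 was 0.026. With all 20 arrays, 401 minus 267 was 0.13. Without females 7 and 8, 401 minus 377 was -0.16 and 381 by sex 0.17. Without female 5, 086 minus 096 was 0.23. Among called pairs, log2(RFU + 500) gave smaller differences, 1.33 for 403 minus 384, 0.90 for 403 minus 086, 0.47 for 086 minus 144, 0.68 for 379 minus 398, -0.44 for 379 minus 403, -0.92 for 377 minus 403 and -0.61 for 086 minus 307, each still called. The cause of these changes was not tested.
No paired analysis of the sexes was possible because the running numbers of females and males pair no animals. Of the 133 values of members, 50 lie at or below buffer, which limits differences among dim compounds.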
